A study of Mus musculus with 4 samples.

Results

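Integrins are cell surface adhesion receptors, each built of 1 α and 1 β chain, that join a cell to its neighbours, to vessel walls and to matrix. On leukocytes the β2 chain pairs with αL (LFA-1), αM (Mac-1, also called CD11b/CD18) or αX (CD11c/CD18), which bind ICAM proteins and complement fragments and serve neutrophils and monocytes in arrest on endothelium and in phagocytosis. The β1 chain pairs with α4 (VLA-4), α5 or α6, which bind VCAM-1, fibronectin and laminin and are known for holding stem and progenitor cells in the marrow, and α4 can also pair with β7 to bind MAdCAM-1. The genes compared here are 10 leukocyte integrin chains, namely Itgb2, Itgal, Itgam, Itgax and the β2-like Itgb2l, Itgb1 with Itga4, Itga5 and Itga6, and Itgb7. They were taken as every probe set whose platform gene symbol is one of these names, which gave 26 of 45101 probe sets, and all 10 genes were among the 12378 tested.

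Marrow of mice with leukemia driven by MN1, a transcriptional coregulator, was set against mature myeloid marrow cells of healthy mice, with 2 arrays in each group and C57BL/6J as the strain of both. The labels call the arrays of a group replicates without saying that they come from separate mice, so the p-values measure only the spread between these samples, which may be technical for the leukemic arrays. The Gr1/Mac1 arrays differed in sex-linked genes, as given with the signals of Xist and Eif2s3y, and so do not hold RNA of the same mice. For the group labelled MN1 leukemic, donor marrow was taken 4 days after 150 mg/kg of fluorouracil, cultured for 48 hours with interleukin-6 (10 ng/mL), interleukin-3 (6 ng/mL) and stem cell factor (20 ng/mL), given MN1 by coculture with GP+ E86 virus producer cells irradiated with 4000 cGy in the presence of 5 µg/mL of protamine sulfate, sorted for GFP and kept in the same 3 cytokines. These cells were injected, together with a life-sparing dose of fresh syngeneic marrow, into recipients given 750 cGy, so the leukemic marrow can also hold cells of the helper graft and the host, and the labels name no sort of it at harvest. The group labelled Gr1/Mac1 is marrow of healthy mice positive for Gr1 and for CD11b, the product of Itgam, so the level of Itgam and of chains that share its cells was favoured in that group by the choice of cells. As the arrays include no immature cells of healthy mice, leukemia and immaturity cannot be told apart. The labels give no age for the mice.

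The values are MAS5 signals, linear intensities, and the number of arrays limits their precision. A log2 fold change is MN1 leukemic minus Gr1/Mac1 on the log2(signal + 16) scale, which understates changes of dim genes, each gene is read from its brightest probe set unless another is named, and a call is a limma adjusted p up to 0.05. The probe set of Mn1 read 17.7 and 92.6 on the leukemic arrays and 3.92 and 12.1 on the Gr1/Mac1 arrays, below the filter on low signals. Whether this probe set reads the introduced MN1 was not tested. The ratio of 3′ to 5′ control signals for beta-actin lay between 3.09 and 3.28 on leukemic and between 1.32 and 1.39 on Gr1/Mac1 arrays, and the part of this difference in the results was not tested. Gr1/Mac1 replicate 2 stood apart in sex-linked genes, with 114 for Xist and 4409 for the Y-linked Eif2s3y, against 7138 and 2.90 in Gr1/Mac1 replicate 1, so counts are also given without it. Stem and progenitor markers were higher in leukemic marrow in 9 of 9 tested cases and monocyte markers lower in 9 of 9. Only 5 of 11 tested neutrophil markers were lower and 6 did not pass. Over all tested genes, 27.5% were higher and 15.9% lower. S100a8, a neutrophil calcium-binding protein, read 90661 and 64532 on the leukemic arrays and 69575 and 55476 on the Gr1/Mac1 arrays. Its signal was high in both groups. In bulk samples such as these, fewer cells of a type and less RNA per cell cannot be told apart.

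Leukemic marrow had lower levels of the whole β2 set and of Itgb7, and higher levels of Itgb1, Itga4 and Itga5. The direction of Itgb1 and Itga4 turned under 1 of the 4 array scalings tried, that to hybridization controls. Of the 10 chains, 6 fell, 3 rose and Itga6 did not pass, against 15.9% of all 12378 genes that fell, 27.5% that rose and 43.4% that did either. The 6 decreases out of 10 lie above that background, while the 3 increases out of 10 lie near it. The decreases include Itgam, on whose product the Gr1/Mac1 cells were chosen, and chains that share its cells. The 10 chains were also chosen with earlier results of these data known, so the counts only describe them. The median log2 fold change of the chains was -1.57, beside 0.28 over all tested genes. Without Gr1/Mac1 replicate 2, 2 chains rose and 5 fell, and likewise without Gr1/Mac1 replicate 1. With leukemic replicate 1 or leukemic replicate 2 left out in turn, 4 fell and 0 rose each time.

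**Figure D1:**
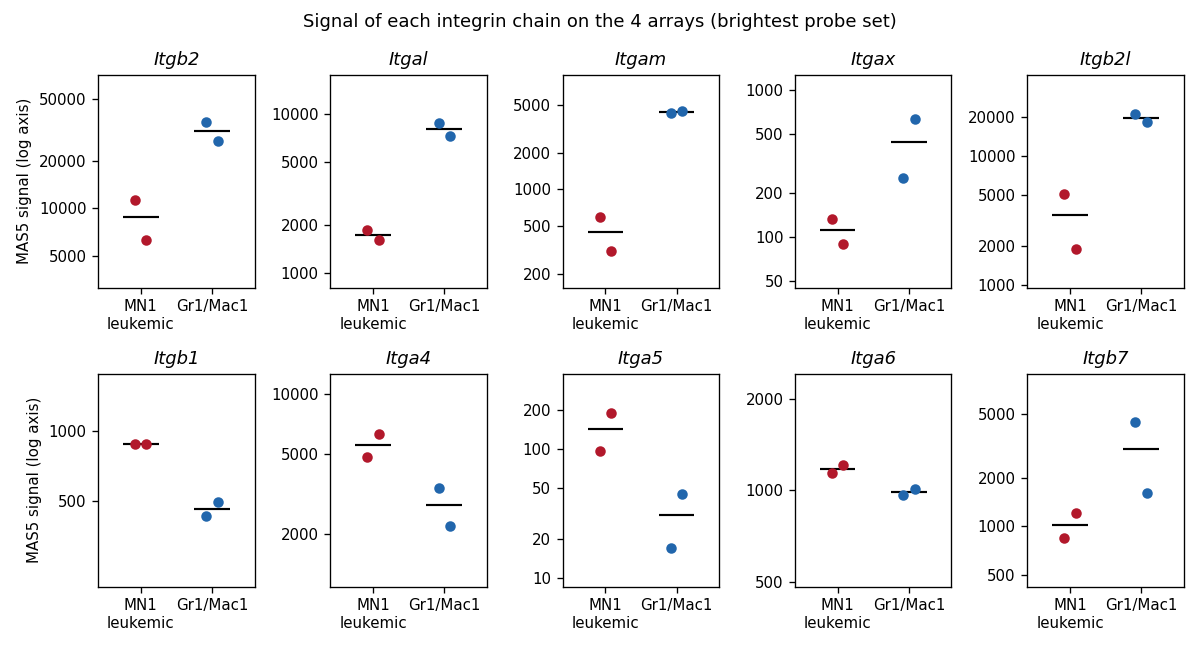
MAS5 signal (log axis, its range set for each gene) of the 10 integrin chains on the 2 MN1 leukemic arrays (red, left) and the 2 Gr1/Mac1 arrays (blue, right), from the brightest probe set, with a bar at the group mean. Itga6 has the smallest gap between the groups as a ratio, with 1138 as its lowest leukemic and 1012 as its highest Gr1/Mac1 signal. Its change did not pass.

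Itgb2 encodes the β2 chain that LFA-1, Mac-1 and CD11c/CD18 share. Its probe set (1450678_at) read 11352 and 6236 on the leukemic arrays and 35417 and 26993 on the Gr1/Mac1 arrays. Both leukemic signals lay far below both Gr1/Mac1 signals, and the fall was 3.67-fold (log2 -1.88, SE 0.35, adjusted p = 0.0053). Itgal, the αL chain of LFA-1, read 1880.0 and 1620.2 in leukemic and 8877 and 7363 in Gr1/Mac1 marrow (1435560_at). The replicates of each group lay close together and the groups were wide apart, with a fall of 4.60-fold (log2 -2.20, SE 0.23, adjusted p = 8.3e-04).

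Itgam, the αM chain by which the mature cells were chosen, had the largest change of the 10 chains. Its only probe set (1422046_at) read 584 and 306 in leukemic marrow, against 4288 and 4407 in Gr1/Mac1 marrow. This was a fall of 9.93-fold (log2 -3.31, SE 0.33, adjusted p = 7.0e-04), with leukemic replicate 1 well above leukemic replicate 2 and the Gr1/Mac1 arrays close to each other. Itgax, the αX chain best known from dendritic cells and some macrophages, was dim, with 132 and 90.4 on the leukemic and 253 and 638 on the Gr1/Mac1 arrays (1419128_at). Its fall of 3.34-fold (log2 -1.74, SE 0.49, adjusted p = 0.026) rested on Gr1/Mac1 arrays that themselves differed widely. Itgb2l encodes Pactolus, a mouse protein like the β2 chain that is known from bone marrow granulocytes. It read 5063 and 1901 in leukemic marrow and 21413 and 18469 in Gr1/Mac1 marrow, a fall of 6.38-fold (1449829_at, log2 -2.67, SE 0.44, adjusted p = 0.0035). As Itgb2l is a near relative of Itgb2, the platform annotation does not show how far their probes are apart.

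Calls of Itgb2, Itgal, Itgam and Itgb2l held under all 17 alternative settings tried, with adjusted p between 1.5e-06 and 0.030. Itgax lost its call without leukemic replicate 1 (adjusted p = 0.060), without leukemic replicate 2 (0.14) and without Gr1/Mac1 replicate 2 (-1.10, adjusted p = 0.086), out of a range of 0.0025 to 0.14 over the 17, and it was -2.38 without Gr1/Mac1 replicate 1. Itgb2l was -3.38 without leukemic replicate 1 and -1.97 without leukemic replicate 2. All 5 chains of the β2 set were higher in leukemic replicate 1 than in leukemic replicate 2. The summed signal of the neutrophil markers moved the same way, with 463178 and 265043 in leukemic replicates 1 and 2, beside 490109 and 387740 in the Gr1/Mac1 arrays. That of the monocyte markers, cells that also carry Itgam and Itgax, was 10818 and 7840 in leukemic and 65849 and 37410 in Gr1/Mac1 marrow. The defining monocyte marker Csf1r read 2431 and 1955 in leukemic and 23525 and 14926 in Gr1/Mac1 marrow, and the part of these cells in the falls was not tested.

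**Figure D2:**
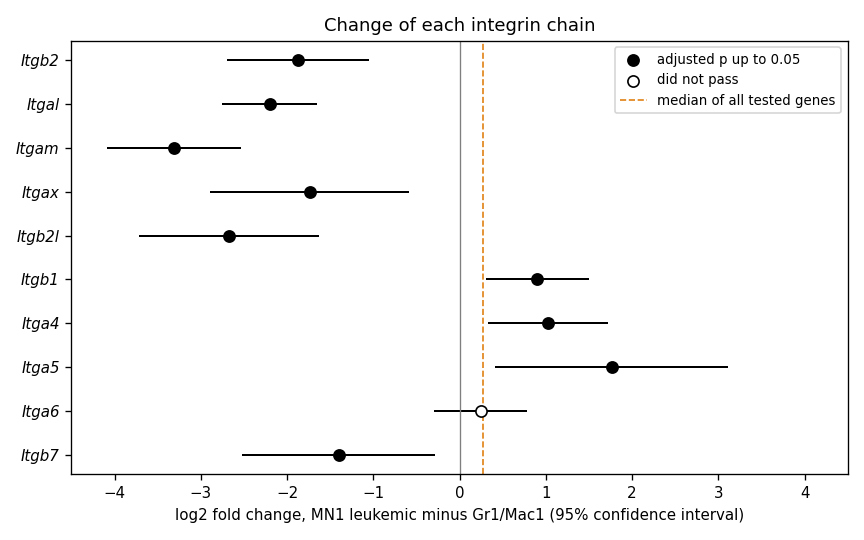
Log2 fold change of each chain, MN1 leukemic minus Gr1/Mac1, with its 95% confidence interval from limma, filled where the adjusted p is up to 0.05, beside the median of all tested genes (dashed, 0.28). Itgam lies lowest at -3.31 and Itga5 highest at 1.76, and the interval of Itga6 runs from -0.30 to 0.79.

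Promoter sequence is shown for the 3 falling genes of the β2 set that RefSeq's promoter table (GRCm38.p6) holds, to let their upstream DNA be read beside their common change. Each line gives the 250 bases before the annotated start, 5′ to 3′ on the gene's own strand. Capitals mark GAGGAA, the purine-rich core that the myeloid ETS factor PU.1 is known to bind, or its complement TTCCTC, and GGGCGG, a GC box, or its complement CCGCCC.
Itgam, chr7:128062390-128062639, plus strand: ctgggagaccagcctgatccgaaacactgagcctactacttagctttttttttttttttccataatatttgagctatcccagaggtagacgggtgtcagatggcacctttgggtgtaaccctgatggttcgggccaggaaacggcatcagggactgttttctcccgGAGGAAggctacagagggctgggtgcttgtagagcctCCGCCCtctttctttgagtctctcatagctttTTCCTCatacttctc
Itgb2l, chr16:96443615-96443864, minus strand: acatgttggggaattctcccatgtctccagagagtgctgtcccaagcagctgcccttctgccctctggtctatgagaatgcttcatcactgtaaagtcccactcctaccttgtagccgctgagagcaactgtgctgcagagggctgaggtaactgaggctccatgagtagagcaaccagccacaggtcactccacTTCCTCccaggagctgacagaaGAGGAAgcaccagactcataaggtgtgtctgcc
Itgax, chr7:128129300-128129549, plus strand: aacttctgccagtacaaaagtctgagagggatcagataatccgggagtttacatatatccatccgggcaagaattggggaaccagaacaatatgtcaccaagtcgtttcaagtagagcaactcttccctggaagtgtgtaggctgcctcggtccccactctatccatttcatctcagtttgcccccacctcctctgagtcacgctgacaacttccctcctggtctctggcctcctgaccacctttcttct

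The Itgam window holds GAGGAA 84 to 79 and, on the other strand, 15 to 10 bases before the start, with 1 GC box between them at 47 to 42. That of Itgb2l also holds GAGGAA at 2 places, 55 to 50 bases before the start on the other strand and 33 to 28 on the gene's own, and no GC box. Neither motif is in the window of Itgax. Of 32851 promoter windows of this length in the table, 23.3% hold GAGGAA and 32.7% GGGCGG on either strand. Among the 7 chains with a window, GAGGAA is in 4 (57.1%), the rising Itga5 and Itgb1 included, and GGGCGG is also in 4 (57.1%). The window of the falling Itgb7 holds neither motif. A match is a description, not a binding site. The windows of Itga4, Itga5 and Itgb7 are not printed, and Itgb2, Itgal and Itga6 have none.

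Itgb1 encodes the β1 chain, the common partner of α4, α5 and α6. It read 878 and 879 on the leukemic and 431 and 496 on the Gr1/Mac1 arrays (1452545_a_at), a rise of 1.87-fold (log2 0.90, SE 0.25, adjusted p = 0.025). The groups were apart and the leukemic replicates nearly equal. A second probe set (1426918_at), tested among all probe sets, read 740.3 and 737 in leukemic and 228 and 277 in Gr1/Mac1 marrow and gave a larger rise of 1.50 (SE 0.28, adjusted p = 0.0068).

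Itga4, the α4 chain of VLA-4, read 4859 and 6356 in leukemic marrow and 3409 and 2177 in Gr1/Mac1 marrow (1436037_at). The lowest leukemic signal lay above the highest Gr1/Mac1 signal, for a rise of 2.03-fold (log2 1.02, SE 0.29, adjusted p = 0.028). Itga5, the α5 chain of the fibronectin receptor, was the dimmest chain on its brightest probe set, with 95.7 and 192 in leukemic and 17.3 and 44.5 in Gr1/Mac1 marrow (1458996_at). Its replicates differed widely in both groups, and the rise (log2 1.76, SE 0.57, adjusted p = 0.043) lay near the threshold. Itga6, the α6 chain of laminin receptors, read 1138 and 1208 in leukemic and 965 and 1012 in Gr1/Mac1 marrow (1422445_at). It did not pass (log2 0.24, adjusted p = 0.43), and the 95% interval of -0.30 to 0.79 holds no change of over 2-fold.

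Itgb7 encodes the β7 chain, the other partner of α4. It read 842 and 1203 on the leukemic arrays and 4468 and 1614 on the Gr1/Mac1 arrays (1418741_at), so that the Gr1/Mac1 replicates differed more from each other than the nearest arrays of the 2 groups did. The fall of 2.64-fold (log2 -1.40, SE 0.47, adjusted p = 0.048) only just passed over genes and missed over probe sets (adjusted p = 0.057). Without Gr1/Mac1 replicate 1 it was -0.67 (adjusted p = 0.12), without Gr1/Mac1 replicate 2 it was -2.13 (adjusted p = 0.0066), and without leukemic replicate 1 and leukemic replicate 2 the adjusted p was 0.19 and 0.088 (range over the 17 alternatives 0.0031 to 0.19). Gr1/Mac1 replicate 1, which was high in Itgb7, was also the higher array for the plasma cell gene Igha, with 5805 against 1023 in Gr1/Mac1 replicate 2 and 10.8 and 8.59 on the leukemic arrays. The summed plasma cell markers read 7823 and 6499 in leukemic and 18882 and 12854 in Gr1/Mac1 marrow, and mast cell markers, whose cells are known to carry β7, 61867 and 74110 in leukemic and 10777 and 13662 in Gr1/Mac1 marrow. The mast cell list shares Gata2 with the stem and progenitor markers. The part of plasma and mast cells in the Itgb7 signal was not tested.

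The rises in the β1 set turned or were lost with the scaling of the arrays, whereas the falls of the β2 set were not. The authors' scaling left the median of all tested genes at 0.28, quantile normalization put it at 0.11, equal array medians at -0.02 and scaling to the 18 hybridization controls at -0.95. Under that last scaling Itgb1 read -0.40, Itga4 -0.30 and Itga6 -1.07 (adjusted p = 0.21, 0.41 and 0.0070), and all 7 called chains were lower. Set against the median of all genes in the same scaling, Itga4 stayed between 0.65 and 1.08 above it, Itgb1 between 0.55 and 0.63, and Itga6 between -0.12 and -0.0046. Itga5 kept its direction and stayed between 1.42 and 1.69 above the median, but each rescaling ended its call. Its limma adjusted p was 0.064 with quantile normalization, 0.054 with equal medians and 0.32 with the hybridization controls. With equal medians Itga4 and Itgb1 did not pass either (0.20 each). Quantile normalization kept the call of Itga4 (0.017) and ended that of Itgb1 (0.073). Itgam lay between -3.66 and -3.49 relative to that median, and Itgb2 between -2.25 and -2.12. Over all genes the split was 3403 higher and 1972 lower as deposited, 2266 and 2291 with equal medians, and 1083 and 5944 with the hybridization controls.

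Calls in the β1 set also hung on single arrays. Itgb1 had an adjusted p of 0.16 without leukemic replicate 1 and 0.18 without leukemic replicate 2. For Itga4 these were 0.061 and 0.19, and for Itga5 they were 0.066 and 0.28. Leaving out Gr1/Mac1 replicate 2 ended the call of Itga4 (0.075), and leaving out Gr1/Mac1 replicate 1 that of Itga5 (0.11). Over the 17 alternatives the adjusted p ran from 0.0050 to 0.21 for Itgb1 and from 0.013 to 0.41 for Itga4, and over the 16 that tested it from 0.029 to 0.32 for Itga5.

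**Figure D3:**
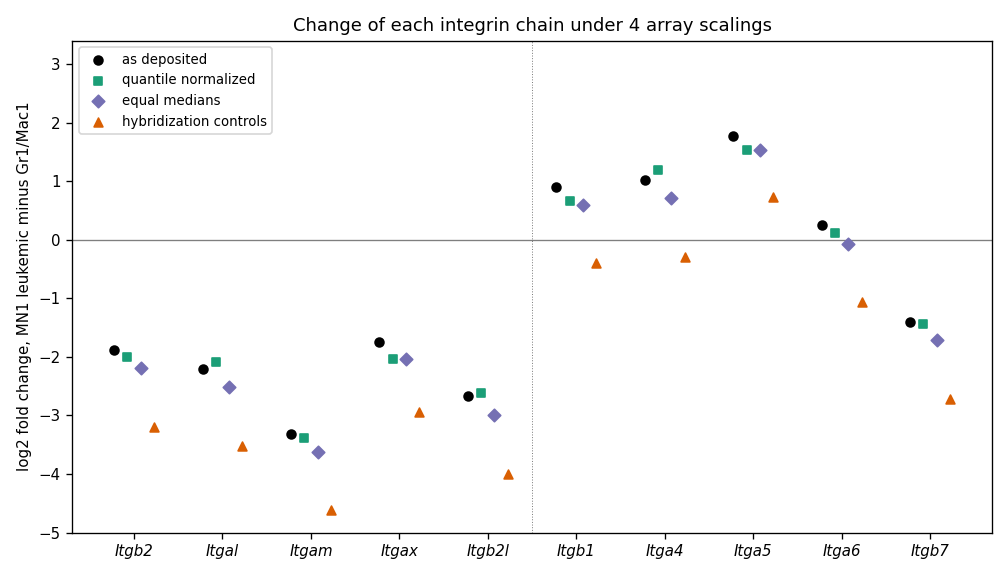
Log2 fold change of each chain, MN1 leukemic minus Gr1/Mac1, with the arrays as deposited, quantile normalized, at equal medians, or scaled to the hybridization controls with the mean factor of each group. The 5 chains of the β2 set (left of the dotted line) lie at or below -1.74 under all 4 scalings, while Itgb1, Itga4 and Itga6 lie on both sides of 0.

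A difference between chains on the same array does not depend on 1 scaling factor per array, apart from the pseudocount. Itgam less its partner Itgb2, in log2 units, was -4.24 and -4.28 on the leukemic and -3.04 and -2.61 on the Gr1/Mac1 arrays. Itgam was thus lower still than Itgb2 in leukemic marrow, by -1.44. The Gr1/Mac1 cells were chosen by the product of Itgam, so this pair is not free of the choice of cells. Itgal less Itgb2 gave -2.58 and -1.93 in leukemic and -1.99 and -1.87 in Gr1/Mac1 marrow, which overlap, and its difference of -0.33 turned to 0.18 with averaged probe sets. Itgax less Itgb2 overlapped as well. Itgb2l less Itgb2, which are not α and β partners, was apart, with -1.16 and -1.71 in leukemic and -0.73 and -0.55 in Gr1/Mac1 marrow.

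Among the α4 pairs, Itga4 less Itgb1 overlapped between the groups (difference 0.12, or -0.51 with averaged probe sets), and Itga4 less Itgb7 was 2.51 and 2.39 on the leukemic, against -0.39 and 0.43 on the Gr1/Mac1 arrays. That gap of 2.43 is the widest of the 8 pairs, and it includes the spread of Itgb7 between the Gr1/Mac1 replicates. Itga6 less Itgb1 differed by -0.66 and Itga5 less Itgb1 by 0.86, both without overlap. These moved to -1.10 with averaged probe sets for Itga6 and to 0.27 with a pseudocount of 64 for Itga5. With 2 arrays a group the exact two-sided permutation test cannot go below p = 0.333, so none of these differences could pass. The 5 pairs without overlap reached that p, which Benjamini-Hochberg adjustment over the 8 pairs made 0.533. Between the β chains, Itgb1 less Itgb2, a pair chosen after the data had been seen, was -3.67 and -2.80 in leukemic and -6.31 and -5.72 in Gr1/Mac1 marrow.

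Probe sets of the same gene did not all tell the same story. Of the 26, 19 passed the filter on low signals, and of these 4 were called higher and 6 lower, against 21.2% higher, 13.6% lower and 34.9% in all among 27022 kept probe sets. Both probe sets of Itgal fell, the dimmer one (1425367_at) with 217 and 139.8 in leukemic marrow against 402 and 434 in Gr1/Mac1 marrow (-1.19, adjusted p = 0.032). All 5 of Itga4 were kept, of which only the brightest was called, 3 others lay between 0.52 and 1.13 and the dimmest at -0.28 (adjusted p = 0.73). In Itgb1, 3 of 6 were kept and 2 called higher, while 1438119_at, below the filter, read 5.39 and 2.50 in leukemic and 16.5 and 21.8 in Gr1/Mac1 marrow. The other Itgb2l probe sets were dim on every array, between 5.60 and 43.2, and thus carry no check on the bright one.

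**Figure D4:**
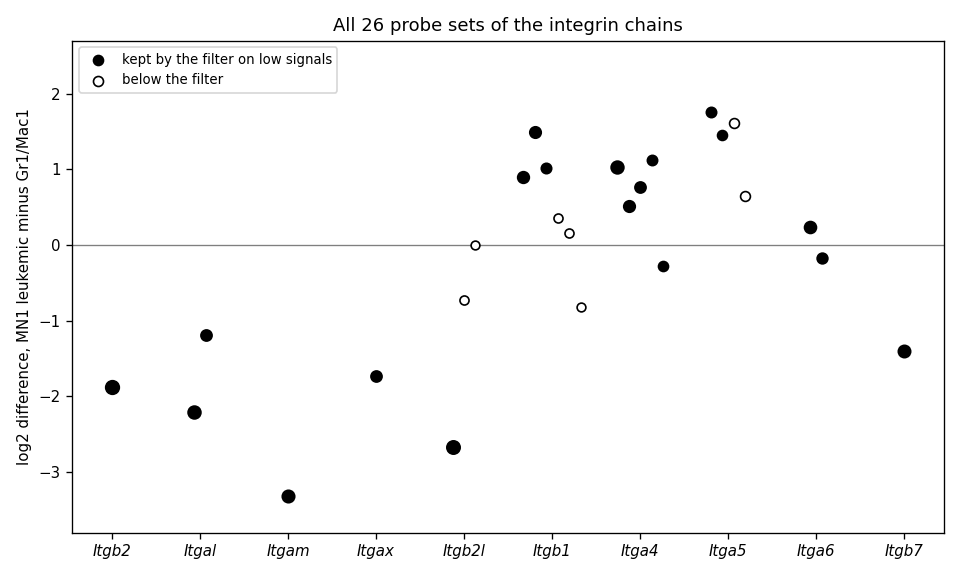
Log2(signal + 16) difference, MN1 leukemic minus Gr1/Mac1, for each of the 26 probe sets, ordered within a gene by mean signal and drawn larger where brighter. Open points were below the filter, and they include 3 of Itgb1 and 2 each of Itgb2l and Itga5.

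The other probe sets of Itga5 also read higher in leukemic marrow on average. Of these, 1457561_at read 59.2 and 95.1 in leukemic and 23.2 and 6.81 in Gr1/Mac1 marrow, and 1423268_at read 59.8 and 55.6 in leukemic and 38.2 and 25.01 in Gr1/Mac1 marrow, both below the filter and without overlap. The fourth, 1423267_s_at, overlapped, with 17.4 and 159 in leukemic and 2.80 and 25.3 in Gr1/Mac1 marrow (1.46, adjusted p = 0.25). Itga6 had its dimmer probe set at 158 and 136 in leukemic and at 167 on both Gr1/Mac1 arrays, a difference of -0.17 that did not pass (adjusted p = 0.74).

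For Itgb1, whose signal rose on its brighter probe sets, the promoter window is shown beside those of Itgam, Itgb2l and Itgax. It holds 1 GAGGAA, 9 to 4 bases before the start, and 1 GC box.
Itgb1, chr8:128685404-128685653, plus strand: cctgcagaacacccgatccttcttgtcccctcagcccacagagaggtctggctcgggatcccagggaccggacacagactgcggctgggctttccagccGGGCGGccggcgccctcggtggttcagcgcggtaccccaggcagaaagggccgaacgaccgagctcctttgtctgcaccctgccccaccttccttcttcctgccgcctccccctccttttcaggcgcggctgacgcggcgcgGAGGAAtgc

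Genes with the pattern most like Itgam over the 4 arrays, by Euclidean distance of centred log2(signal + 16), were Gpat3 (0.068), which makes glycerolipids, the smooth muscle actin gene Acta2 (0.082) and Zswim6 (0.128). Nearest to Itgb2 was the copper transporter gene Slc31a2 (0.062), and nearest to Itgb2l the paired receptor gene Cd300lb (0.131). Tmbim1 (0.021) was nearest to Itga4, and Mapre1 (0.0305), a microtubule end-binding protein gene, to Itga6. Within a distance of 0.2 lay 6 genes for Itgam, 24 for Itgb2, 10 for Itgb2l, 51 for Itga4 and 255 for Itga6.

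Integrin chains outside the leukocyte set moved both ways. Of 17 listed, 8 were tested, 4 fell, 1 rose and 3 did not pass, with a median of -0.75. Over all genes, 15.9% fell and 27.5% rose. Itga2b, the αIIb chain of the platelet fibrinogen receptor, read 2092 and 1794 in leukemic and 207 and 233 in Gr1/Mac1 marrow (3.05, SE 0.25, adjusted p = 4.3e-04). Its partner Itgb3 went the other way, with 481 and 185 in leukemic and 2473 and 1226 in Gr1/Mac1 marrow (-2.48, adjusted p = 0.0076). Itga1 (-1.99), Itgb5 (-1.49) and Itgav (-1.26) also fell. Without leukemic replicate 2 only 1 chain of the list fell, and without Gr1/Mac1 replicate 1 only 2 did. The first of these omissions left Itga1 at an adjusted p of 0.15, Itgb5 at 0.071 and Itgav at 0.17, and the second left Itga1 at 0.14 and Itgav at 0.053. Itgav also missed without Gr1/Mac1 replicate 2 (0.081).

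Genes that switch integrins on from inside the cell or tie their tails to actin were mostly lower in leukemic marrow. For this list the background was the 15.9% lower and 27.5% higher over all genes. Of 24 tested, 14 fell and 1 rose, with a median of -1.21, and 9 fell without leukemic replicate 2. The actin cross-linkers Actn1 (-2.96) and Flna (-2.16), the focal adhesion gene Zyx (-2.22) and Cytip (-2.02), whose product binds cytohesins, had the largest falls. Parvb, of the parvin adaptors, rose (1.41, adjusted p = 0.037), a call that 6 of 7 scalings and array omissions ended (adjusted p 0.011 to 0.75). Named after their values were seen, the talin gene Tln1 fell (-1.44, adjusted p = 0.0026), while the kindlin-3 gene Fermt3, needed for β2 integrin activation, read 18907 and 18854 in leukemic and 23519 and 17493 in Gr1/Mac1 marrow and did not pass (-0.10, adjusted p = 0.78).

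Among kinases and adaptors that signal after an integrin has bound, 14 of 16 tested fell and 0 rose, with a median of -1.72. Over all genes, 15.9% fell and 27.5% rose. Fgr, a Src family kinase of myeloid cells, read 904 and 449.9 in leukemic and 7520.1 and 7567 in Gr1/Mac1 marrow (-3.53, adjusted p = 6.5e-04). The ITAM adaptor genes Fcer1g (-2.78) and Tyrobp (-2.10), which carry β2 integrin signals to Syk, and Lcp2, the gene of SLP-76 (-2.77), followed. Of the actin regulators of migration, 14 of 19 fell and 1 rose, beside those same shares over all genes, with a median of -1.12. Lsp1 (-3.00), the profilin gene Pfn1 (-2.37), Coro1a (-1.55) and the Rac activator gene Dock2 (-1.51) had the largest falls by the rule, and Rdx, of radixin, rose (0.97, adjusted p = 0.033).

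These actin counts depended on the arrays, since without leukemic replicate 2 only 3 of 19 actin regulators fell and 8 of 16 signalling genes did, and without Gr1/Mac1 replicates 1 and 2 the actin falls were 10 and 9. Coro1a lost its call without leukemic replicate 2 (0.073), Gr1/Mac1 replicate 1 (0.058) and Gr1/Mac1 replicate 2 (0.055). Rdx turned to -0.36 with the hybridization controls and kept its call in 2 of 7 settings (adjusted p 0.010 to 0.32).

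**Figure D5:**
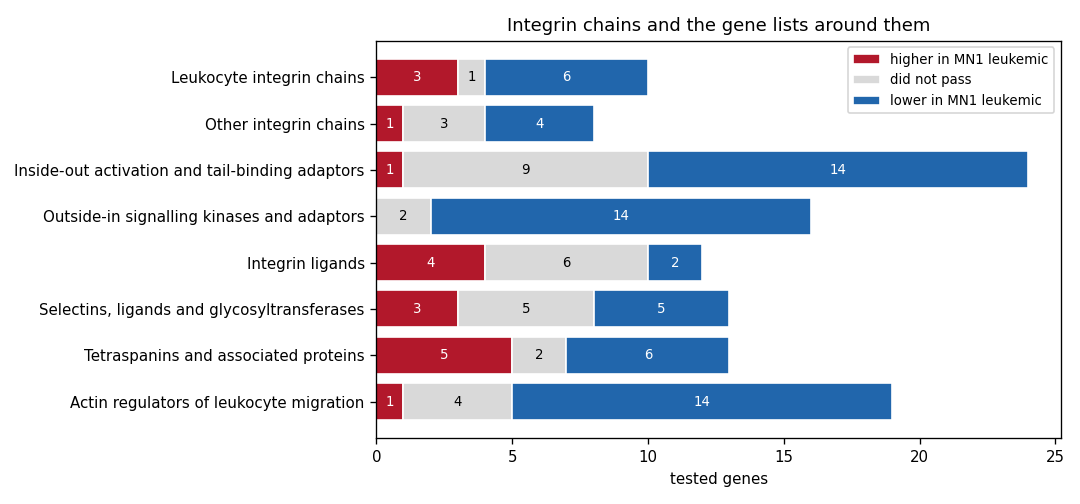
Number of tested genes of each list that were higher (red), not passing (grey) or lower (blue) in MN1 leukemic marrow against Gr1/Mac1 marrow, at a limma adjusted p up to 0.05. The signalling list has 14 lower and 0 higher, and the ligand list 4 higher and 2 lower. Over all tested genes, 15.9% were lower and 27.5% higher.

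Of the ligands of these receptors, 4 of 12 tested were higher and 2 lower, near the shares of 27.5% and 15.9% over all genes, with a median of 0.81. Icam4, a red cell ICAM protein, read 1756 and 2205 in leukemic and 78.6 and 19.9 in Gr1/Mac1 marrow (5.09, adjusted p = 6.1e-04). The laminin chain gene Lamc1 (2.39), Jam3 (1.66) and Icam2 (1.31) were higher too. Fn1, the gene of fibronectin, fell, with 666 and 1042 in leukemic and 25800.4 and 9288 in Gr1/Mac1 marrow (-4.19, adjusted p = 0.0011), as did Thbs1 (-2.32). Gr1/Mac1 replicate 1 was the higher array for Fn1, as it was for Itgb7. The median of this list was -0.38 with the hybridization controls. The median over all tested genes was -0.95 under that scaling and 0.28 as deposited, so the list lay above it in both. With the hybridization controls Icam2 stood at -0.00059 and Jam3 did not pass (adjusted p = 0.32). Without leukemic replicate 1 the calls of Icam2 (0.10) and Jam3 (0.17) were lost, and without leukemic replicate 2 those of Icam2 (0.15), Jam3 (0.077) and Thbs1 (0.056), the last also without Gr1/Mac1 replicate 2 (0.054). With either leukemic replicate left out in turn, 2 ligand genes were higher. Icam2 missed with equal medians as well (0.12).

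Of genes for selectins, their ligands and the glycosylation of these ligands, 5 of 13 tested fell and 3 rose, with a median of -0.72. The falls include Selp, the gene of P-selectin. Over all genes, 15.9% fell and 27.5% rose, so the count of rises lies near background. Selplg, the gene of PSGL-1, fell (-1.81, adjusted p = 0.0029), with B4galt1 (-1.74), Fut4 (-1.70) and the hyaluronan receptor gene Cd44 (-1.57). Podxl and Cd34, sialomucin genes of progenitor cells, rose by 6.42 and 6.38, Podxl reading 2099 and 2175 on the leukemic and 11.01 and 7.27 on the Gr1/Mac1 arrays. Cd34 read 3459 and 5420 on the leukemic arrays and 104 and 6.64 on the Gr1/Mac1 arrays, and its change was 7.58 without Gr1/Mac1 replicate 1 and 5.18 without Gr1/Mac1 replicate 2. Without leukemic replicate 2, Fut4 (0.060) and Cd44 (0.061) did not pass, and the list had 2 falls and 2 rises. Without Gr1/Mac1 replicate 2 it had 5 of each.

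Tetraspanins and other membrane proteins that sit beside integrins split into 6 lower and 5 higher of 13, with a median of 0.26. Over all genes, 15.9% were lower and 27.5% higher. Cd9 (-3.27), the urokinase receptor gene Plaur (-3.26), Cd36 (-2.47) and Cd53 (-2.06) fell. Tspan4, a tetraspanin gene, read 1210.3 and 1213 in leukemic and 6.99 and 3.65 in Gr1/Mac1 marrow (5.85, adjusted p = 1.8e-04), and Slc7a5, the amino acid transporter gene whose partner CD98 heavy chain binds β chains, rose by 4.40. Cd36 missed without leukemic replicate 2 (0.060) and Cd53 without Gr1/Mac1 replicate 2 (0.0505). Without leukemic replicate 2, 3 of the list were higher and 4 lower. With equal medians 3 of the list were higher and the median was -0.06, beside -0.02 over all tested genes. With the hybridization controls 2 were higher and 8 lower, where the split over all genes was 1083 and 5944.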

How the data were processed

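Total RNA of mouse bone marrow was labelled with biotin and read on 4 one-colour arrays. What the authors deposited is a linear intensity for each probe set. The submitters' processing notes name MAS5 and GCOS 1.3.0. The trimmed mean of the deposited signals (2% off each end) was 500.0 on every array, and the array medians lay between 59.1 and 85.4. The sources used here give no scale target.

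From these values, log2(signal + 16) was taken without rescaling. Control probe sets (64) and the 40% with the lowest mean signal (47.6 was the lowest kept) were left out, and each gene was read from its brightest probe set that names 1 gene in the platform annotation, which can be old. The test was limma 3.58.1 run in R 4.3.3 (variance trend, two-sided, Benjamini-Hochberg adjustment over all 12378 genes or 27022 probe sets, threshold 0.05). Residual degrees of freedom were 2, and 6.90 with moderation. The fit was tested on simulated data. Intervals are limma's at 95%. Promoter windows are RefSeq's, matched by symbol. Figures were drawn with matplotlib 3.10.9.

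The members and gene lists were chosen with earlier results of these data known, and the lists come from textbook knowledge. Named besides the members are all called integrin chains of the wider list, in each other list up to 4 called genes in the main direction by size and 2 in the other, and the genes of nearest pattern, unannotated symbols passed over. Alternatives were pseudocounts of 1 and 64, no filter or the lowest 60% left out, quantile normalization, equal medians, hybridization controls with group factors, averaged probe sets of a gene, no _x_at, _s_at or _a_at probe sets, other variance models, a replicate block, a 2-fold minimum, and each array left out. A group left with 1 array takes its spread from the other group.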

Additional observations from a re-analysis of the deposited data

How the results depend on the processing

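Itgb2, Itgal, Itgam and Itgb2l kept direction and call under all 17 alternatives. Reversals were those of Itga6 with equal array medians (-0.073), of Itga4 (-0.30), Itgb1 (-0.40) and Itga6 (-1.07) with hybridization controls, and, where probe sets of a gene were averaged, of Itgal less Itgb2 (0.18) and Itga4 less Itgb1 (-0.51). Leaving out 1 array gave 4 to 7 called chains, 3 to 9 called probe sets of theirs and 2575 to 5441 called genes, against 9, 10 and 5375. Without a filter, 6 probe sets of the chains were called. The adjustment then ran over 45037 probe sets in place of 27022, and the variance trend was refitted with the dim ones. The part of each in the lower count was not tested. Replicate numbers 1 and 2 recur in both groups, but deviations of same-numbered arrays did not go together (correlation -0.03 across genes), and with a replicate block 9 chains and 5562 genes were called. Signal close to background limits Itga5 and 7 probe sets below the filter.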

Other observations

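Markers of several cell types that neither label names were also measured, beside 27.5% of all genes higher and 15.9% lower in leukemic marrow. Erythroid markers were higher in leukemic marrow in 5 of 5 tested cases, among them Klf1, an erythroid transcription factor, with 9157 and 11465 on the leukemic arrays against 54.3 and 101 on the Gr1/Mac1 arrays. Mast cell and basophil markers, a list that shares Gata2 with the stem and progenitor markers, were higher in 6 of 7. Megakaryocyte and platelet markers had 2 higher (Itga2b and Gp5) and 1 lower (Itgb3) of 7, near those shares. Dendritic cell markers, a list that shares Flt3 with the stem and progenitor markers, had 3 higher and 1 lower of 5. Plasma cell markers had 4 lower of 7. Of lymphocyte lists, B cell markers had 0 called of 5, NK cell markers 0 of 4 and T cell markers 1 lower of 2 (limma, adjusted p up to 0.05). Summed B cell markers stayed between 359 and 775 on the leukemic and between 584 and 909.7 on the Gr1/Mac1 arrays.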
